A study of Mus musculus with 20 samples.

Results

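Bulk RNA sequencing of microglia compared 2 mutant mice at end-stage (M1376 and M1524) with 3 mutant mice at 2 months (M2617, M2621 and M2624), in the libraries labelled as cortex. These 5 libraries are 5 of the 20 in the series, which covers 10 mice with a cortex-labelled and a brainstem-labelled library each. The 5 were chosen by the cortex label and the mouse number in the name of the count column. They were set beside the 5 cortex-labelled control libraries, from M1375 and M1521 at end-stage and M2618, M2629 and M2633 at 2 months, and beside the 5 brainstem-labelled libraries of the same mutants. Every embryo was exposed at embryonic day 9.5 to 4-hydroxytamoxifen, given as 1 injection of 37.5 mg per kg to the pregnant female. Mutants carried an inducible Braf V600E allele with Cx3cr1-CreER, recorded as Braf VE with CX3 HET. By the mouse number, controls lacked 1 part of that pair. M1375 was recorded as Braf VE with CX3 WT, and the other controls as Braf WT with CX3 HET. The sample records that name the columns of M2617, M2618, M2621 and M2633 give the other genotype, as described below. Cx3cr1-CreER acts in the yolk-sac-derived precursors of microglia and in other Cx3cr1-expressing macrophages, and it leaves 1 Cx3cr1 allele in its carriers. No label gives the age of the end-stage mice, so stage and age cannot be told apart. The stages were sampled from different animals.

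The labels of some 2-month mice disagree on genotype. By the mouse number, M2617 and M2621 were mutants. By the sample record that names the same columns, both were Braf WT controls, while M2618 and M2633 were mutants. M2624 was a mutant and M2629 a control under both readings, and the end-stage mice were labelled without conflict. The mouse number was used throughout, and the adjusted p by the sample record is given for named genes whose call it ends, which are 27 of 58.

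Microglia are the resident macrophages of the brain. At rest they express a homeostatic set that includes P2ry12, Tmem119 and Sall1, and near damage they can take up a disease-associated set led by Apoe, Lpl, Gpnmb and Cst7. BRAF is a kinase of the RAF-MEK-ERK pathway, and its V600E form signals without an upstream input. Histiocytoses are disorders of macrophage-lineage cells in which this allele is common. Macrophages that take in lipid or debris pass cholesterol outward through the transporters ABCA1 and ABCG1 and the carrier APOE, whose genes are induced by liver X receptors bound to retinoid X receptors.

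Deposited counts summed to 18484054 and 17275587 in the end-stage mutants and to 16868745, 21020151 and 19190248 in M2617, M2621 and M2624, and over the 20 libraries to 9395203 to 21171114. Levels are CPM, read counts normalised to depth on TMM-scaled library sizes, in which Apoe alone took 9.54% and 10.25% of the end-stage mutant totals. Differences are fitted log2 values, end-stage minus 2 months, with their standard error (SE), tested over 16595 genes with edgeR at an adjusted p of 0.05. Both end-stage mutants expressed Xist and no Y-linked marker, as did M2621, while M2617 and M2624 were male by the same genes, so sex was not balanced between the stages. The 16 hindbrain Hox genes, markers of brainstem tissue, summed to 0.654 to 4.31 CPM in cortex-labelled and 0.325 to 1.19 CPM in brainstem-labelled libraries. In 9 of 10 mice the cortex-labelled sum was the larger of the pair. For the 8 cortex tissue genes this held in 3 of 10 mice, so the region is named here only as labelled.

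Braf, the engineered locus, stood at 17.9 and 13.7 CPM at end-stage and at 16.3, 5.74 and 11.2 CPM in M2617, M2621 and M2624 (adjusted p = 0.73). Gene counts do not separate the mutant allele from the normal one. Cx3cr1, the fractalkine receptor whose locus carries the CreER, was at 1462 and 1504 CPM at end-stage and 1578, 998 and 1624 CPM at 2 months (adjusted p = 0.95). The control recorded as CX3 WT, M1375, had 4399 CPM, and the 4 controls recorded as CX3 HET had 1988 to 2793 CPM.

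Between 2 months and end-stage, 122 genes were higher and 183 lower in mutants, 0.735% and 1.1% of the genes tested. Genes whose 2 end-stage libraries lay wholly above the 3 at 2 months made up 14.8% of those tested, and wholly below, 15%. In controls the same contrast called 0 genes (0%) with edgeR, with 1432 at an unadjusted p under 0.05, against 2340 in mutants. DESeq2 called 35 in controls and limma-voom called 0. The median difference over all genes in mutants was -0.01 on the log2 scale. The calls depend on single mice: leaving out M1376 left 43 higher and 53 lower, without M2621 there were 45 and 84, without M2624 58 and 97, and without M1524 60 higher. The sample-record reading gave 95 higher and 142 lower, and the 3 mutants with undisputed labels gave 6 and 18.

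**Figure D1:**
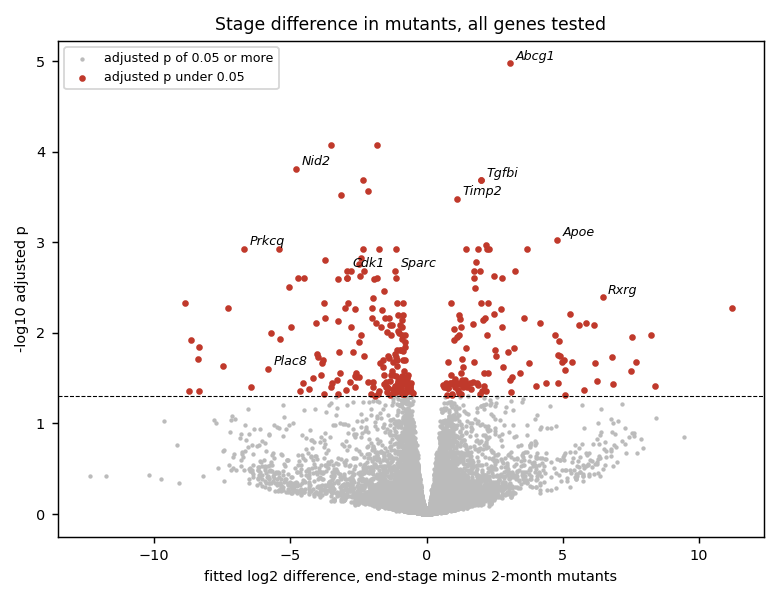
Fitted log2 difference between end-stage and 2-month mutants (x) against -log10 of the edgeR adjusted p (y), 1 point per gene, with the 305 genes under 0.05 in red above the dashed line. Abcg1 stands highest at 3.08, and Apoe, Rxrg, Prkcq and Nid2 lie far from 0 on either side.

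Promoters were examined for some of the genes named below with large changes, and the 3 shown are those that held a motif match. Rxrg heads the genes that rose with a mean of at least 1 on the log2 CPM scale, Plac8 fell from a level that among cortex-labelled libraries only the 2-month mutants had, and Ube2c, which acts in mitosis, is one of the 10 largest falls. Each line gives the 250 bases upstream of the start in RefSeq on GRCm38.p6, 5′ to 3′ on the gene's strand, with motif matches in capitals.

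Rxrg, chr1:167598112-167598361, plus strand: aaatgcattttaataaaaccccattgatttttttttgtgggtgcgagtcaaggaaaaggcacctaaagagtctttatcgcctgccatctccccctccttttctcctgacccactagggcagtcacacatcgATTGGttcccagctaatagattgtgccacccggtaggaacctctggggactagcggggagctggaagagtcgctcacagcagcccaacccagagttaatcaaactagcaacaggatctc

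Plac8, chr5:100572206-100572455, minus strand: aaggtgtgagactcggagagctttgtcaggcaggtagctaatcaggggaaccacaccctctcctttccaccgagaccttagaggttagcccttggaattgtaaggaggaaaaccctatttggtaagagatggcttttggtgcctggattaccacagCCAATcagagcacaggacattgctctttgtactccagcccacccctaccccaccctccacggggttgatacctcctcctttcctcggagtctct

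Ube2c, chr2:164769679-164769928, plus strand: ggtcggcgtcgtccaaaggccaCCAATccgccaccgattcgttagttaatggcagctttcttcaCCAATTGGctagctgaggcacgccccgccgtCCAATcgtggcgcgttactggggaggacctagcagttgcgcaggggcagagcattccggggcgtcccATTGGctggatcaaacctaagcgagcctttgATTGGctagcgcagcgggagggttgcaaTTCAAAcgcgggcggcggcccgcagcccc

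Motifs searched on both strands were the AP-1 site TGANTCA, the ETS site CCGGAAGT, the PU.1 site GAGGAAGT, the E-box CACGTG, the interferon-stimulated element, the CCAAT box CCAAT and the cell cycle homology region TTTGAA. The ETS and PU.1 patterns share the letters GGAAGT, and the last 2 motifs were chosen after the values were seen. The capitals in Rxrg and Plac8 are 1 CCAAT box each, written ATTGG where it lies on the other strand. Ube2c held 6 CCAAT boxes, of which a pair overlaps, and 1 cell cycle homology region. A CCAAT box was found in 36.3% and a cell cycle homology region in 10.7% of the promoters of this length that matched a tested gene. The upstream windows of Cspg4, Ms4a4a and Prkcq were examined too, held none of the 7 patterns and are not shown. Size of change did not decide this, as Prkcq fell further (log2 -6.69) than Plac8 (-5.82) or Ube2c (-5.37). RefSeq windows were matched for 10733 of 16595 tested genes, and for 96 of the 122 that rose and 140 of the 183 that fell. A CCAAT box was in 36.5% of the 96 and 45.7% of the 140. The cell cycle homology region was in 9.38% and 13.6%. Differences between these shares were not tested.

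Among genes with a mean of at least 1 on the log2 CPM scale, most of the 10 largest rises were of genes near absent at 2 months. Rxrg, which encodes a retinoid X receptor, was at 36.7 and 55.1 CPM in M1376 and M1524 and at 1.22, 0 and 0.36 CPM in M2617, M2621 and M2624. Controls had 0 to 1.51 CPM. The 2 stages did not overlap, and the fitted difference was 6.46 (SE 1.07, adjusted p = 0.004). Apoe, the lipid carrier, was at 95370 and 102500 CPM at end-stage against 6182, 1234 and 3273 CPM at 2 months and 662 to 1555 CPM in controls. That is a 27.8-fold rise (log2 4.80, SE 0.63, adjusted p = 0.00094). The 2-month mutants overlapped the controls for Apoe, with M2621 inside the control range and the other 2 above it. Colec12, a scavenger receptor, was at 41.2 and 196 CPM at end-stage, 2.32, 0 and 2.73 CPM at 2 months and at most 0.0684 CPM in controls (adjusted p = 0.0082).

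The other 7 of these 10 were at most 3.24 CPM in every 2-month mutant. Cspg4, a chondroitin sulfate proteoglycan, went from 0 to 2.37 CPM over the 2-month mutants to 37.0 and 87.8 CPM. It is also a marker of oligodendrocyte precursors, of which the other 4 tested list members were fitted below 0 and did not pass. Apoc1, an apolipoprotein gene next to Apoe, was at 48.0 CPM in M1376 and 9.04 CPM in M1524 against 0.308 to 1.04 CPM at 2 months. Gpnmb, a transmembrane glycoprotein of lipid-laden macrophages, was at 21.3 and 66.7 CPM against 0.461 to 2.57 CPM. Xdh, the purine-degrading xanthine dehydrogenase, was at 62.5 and 84.5 CPM against 1.44 to 3.24 CPM, and its controls ranged from 0.264 to 12.4 CPM. Ms4a4a, Ikbke (a kinase of innate immune signalling) and Kif1a (a motor protein) completed the 10, with fold rises of 34.6, 30.2 and 29.6. Of these 10, Rxrg and Apoe kept their call without each mouse in turn. For the other 8 the highest adjusted p was 0.30 (Gpnmb), 0.28 (Ms4a4a), 0.25 (Apoc1), 0.18 (Colec12), 0.17 (Kif1a and Cspg4), 0.11 (Xdh) and 0.096 (Ikbke). Gpnmb, Ms4a4a and Ikbke lost it without any 1 of the 5 mice. Colec12 lost it without M1524 (and by the sample record, adjusted p = 0.058, as did Ms4a4a, 0.065), Kif1a without M1524, M2621 or M2624, and Apoc1 without M1376 or M2624. Xdh lost it without every mouse but M2617, and Cspg4 without every mouse but M2624.

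The named genes that fell divided into those raised over the controls in 2-month mutants and those present in controls. Plac8, a small cysteine-rich protein also used as a monocyte marker, was at 57.5, 97.9 and 72.3 CPM in the 2-month mutants, 0.327 and 2.41 CPM at end-stage and 0.106 to 4.38 CPM in controls. Its fall was 55.5-fold (adjusted p = 0.025). Prkcq, which encodes protein kinase C theta, was instead at 9.96, 12.2 and 8.03 CPM at 2 months and 5.01 to 16.5 CPM in controls, against 0 and 0.195 CPM at end-stage. Only 3 reads were counted at end-stage against 557 at 2 months, a ratio of 113 (exact 95% interval 38.5 to 551, counting error only). The 2-month mutants overlapped the controls, and both end-stage mutants lay below all 5 of them. Nid2, a basement membrane protein, followed the same pattern, with 17.8, 31.5 and 27.3 CPM at 2 months, 0.818 and 1.04 CPM at end-stage and 11.1 to 18.3 CPM in controls (27.5-fold, adjusted p = 0.00015). Upk1b, a tetraspanin family member, was at 112, 187 and 109 CPM at 2 months, 5.83 and 6.05 CPM at end-stage and 98.8 to 337 CPM in controls. Gpr165, an orphan receptor, was at 8.82 to 10.1 CPM at 2 months, already below the control libraries at 9.99 to 61.8 CPM in 2 of 3 mice, and fell further to 0.654 and 0 CPM.

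The remaining 5 of the 10 largest named falls, Ube2c, Ccnb1, Pbk, Rrm2 and Birc5, are known for roles in cell division, and Ccnb1, Rrm2 and Birc5 are on the cell cycle list. Prkcq, Nid2 and Gpr165 kept their call without each mouse. The highest adjusted p of the others was 0.15 for Plac8 (lost without M1376, M2621 or M2624) and 0.062 for Upk1b, 0.10 for Ccnb1 and 0.13 for Ube2c (each lost without M1376). It was 0.21 for Pbk (lost without every mouse but M1524) and 0.21 for Rrm2 and 0.34 for Birc5 (lost without any 1 mouse). By the sample record the adjusted p was 0.34 for Plac8, 0.24 for Ube2c, 0.31 for Ccnb1, 0.37 for Pbk, 0.34 for Rrm2 and 0.43 for Birc5.

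**Figure D2:**
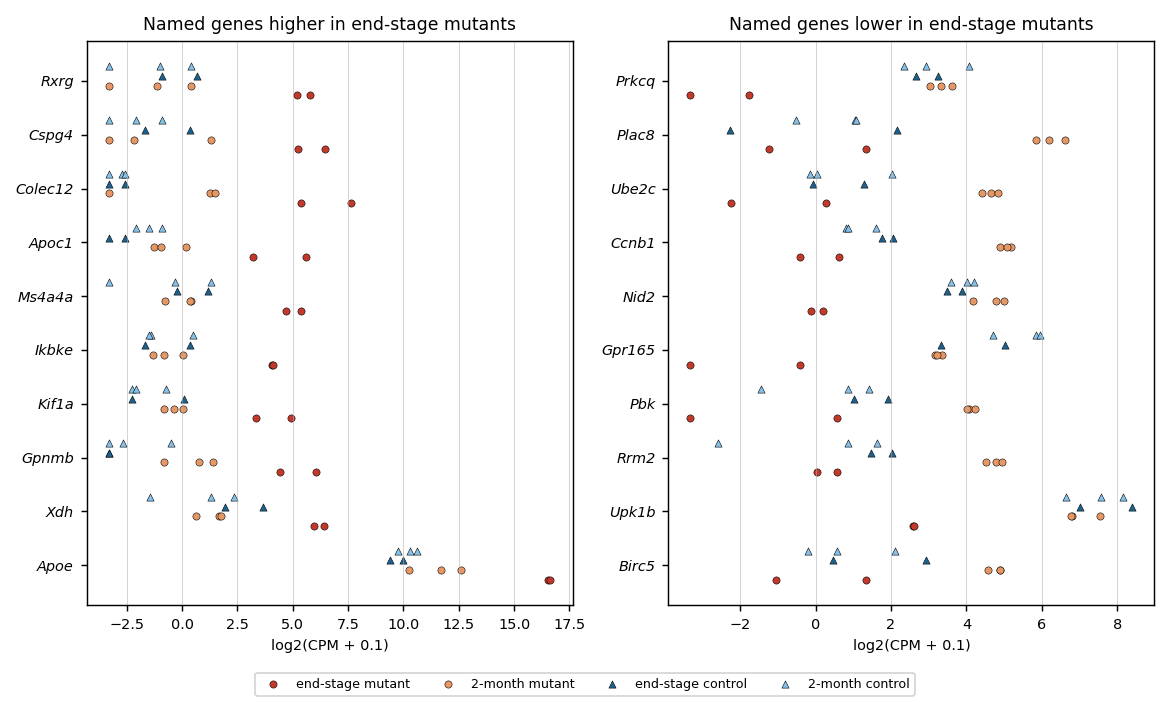
Level of the 10 named genes with the largest rise (left) and fall (right) in each cortex-labelled library, as log2(CPM + 0.1), with mutants as circles and controls as triangles. Apoe reaches 95370 and 102500 CPM at end-stage, and Plac8 is high in the 3 mutants at 2 months alone.

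The 305 called genes were placed against the range of the 5 cortex-labelled controls. Among all genes tested, the 3 two-month mutants lay wholly above that range for 8.74% and wholly below it for 6.05%, and the 2 end-stage mutants for 14.1% and 13.1%. Of the 122 genes that rose, 97 were above the range at end-stage. In 80 of those the 2-month mutants overlapped the controls, in 12 they were above them already, and in 5 they were below. In another 21 the 2-month mutants were below the controls and the end-stage mutants overlapped them. Of the 183 that fell, 140 were below the control range at end-stage, 96 of them with 2-month mutants that overlapped the controls and 31 with 2-month mutants already below. In 39 the 2-month mutants were above the controls and the end-stage mutants were back among them. These positions use the mouse-number reading.

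Of the 37 cell cycle genes tested, 13 were lower at end-stage and 0 higher, against 1.1% and 0.735% of all genes tested. All 37 tested members had a fitted difference below 0, with a median of -2.92 against -0.01 over all genes, and 0.46 in controls. In 33 of 37 the end-stage mutants lay wholly below the 2-month mutants, where 15% of all genes tested did. The 13 were Ccna2, Ccnb1, Ccnb2, Cdk1, Cdc20, Birc5, Aurka, Plk1, Kif20a, Mcm5, Rrm2, Tyms and Stmn1. The other 24, which include the proliferation marker Mki67, did not pass. The list's summed level was 271.6 and 362.6 CPM at end-stage, 854.5, 1030 and 985.7 CPM in M2617, M2621 and M2624, and 212.6 to 365.6 CPM in controls. The 2-month mutants therefore stood apart and the end-stage mutants lay among the controls. In the 2-month mutants 34 of the 37 were above every control library, and at end-stage 3 were, against 8.74% and 14.1% of all genes tested. The brainstem-labelled libraries of the same mutants had 408.0, 268.1 and 322.5 CPM at 2 months and 284.6 and 330.0 CPM at end-stage.

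Ube2c, which tags mitotic cyclins for destruction and is not on the list, was at 24.9, 21.2 and 28.5 CPM in M2617, M2621 and M2624 and at 0.109 and 1.11 CPM at end-stage (log2 -5.37, SE 1.05, adjusted p = 0.012). Ccnb1, the mitotic cyclin B1, was at 36.1, 29.3 and 33.7 CPM against 0.654 and 1.43 CPM (log2 -4.99, SE 0.93, adjusted p = 0.0086). Cdk1, the kinase that cyclin B1 activates, was at 39.2, 40.8 and 48.4 CPM against 4.03 and 7.29 CPM, and controls had 4.76 to 9.97 CPM (7.56-fold, adjusted p = 0.0021). Aurka, a spindle kinase, was at 22.0, 20.3 and 30.4 CPM against 1.20 and 2.47 CPM (13.2-fold, adjusted p = 0.0016). In each of these the 2-month mutants did not overlap any other cortex-labelled group.

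Genes of DNA replication were also among the 13. Rrm2, a subunit of ribonucleotide reductase, was at 27.3, 23.0 and 30.7 CPM at 2 months and 0.927 and 1.37 CPM at end-stage. Tyms, which makes thymidylate, was at 28.2, 39.0 and 30.0 CPM against 15.1 and 11.9 CPM (log2 -1.26, adjusted p = 0.026). Mcm5, part of the replicative helicase, was at 34.2, 66.5 and 49.5 CPM against 8.01 and 17.9 CPM (log2 -1.95, adjusted p = 0.039). Pcna, the replication clamp, overlapped between stages at 32.6 to 55.3 and 41.9 to 51.7 CPM (adjusted p = 1.0). Mki67 was at 4.95, 0.513 and 6.49 CPM against 0 and 0.325 CPM (adjusted p = 0.32). Hmgb2, a chromatin protein of dividing cells outside the list and named after its values were seen, was at 73.9, 77.4 and 78.2 CPM against 21.5 and 23.6 CPM (adjusted p = 0.0012).

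The count of 13 depends on the labels and on single mice. By the sample record 0 of 37 passed, and with undisputed mice alone 1 did. Without M1376 it was 2, without M2621 4, without M2624 5, without M2617 7, and against the female M2621 alone 2. DESeq2 gave 19 and limma-voom with mouse as a replicate block 21. M2624, whose label is undisputed, was above the 3 undisputed controls for 37 of 37 members, where 29.5% of all genes tested were. Within the list, Aurka and Cdk1 kept their call without each mouse in turn. Cdc20 and Ccnb1 lost theirs without M1376 (adjusted p = 0.1 for both), and Ccna2 without M1376, M2621 or M2624 (at most 0.18). By the sample record the adjusted p was 0.49 for Cdc20 and 0.35 for Ccna2.

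**Figure D3:**
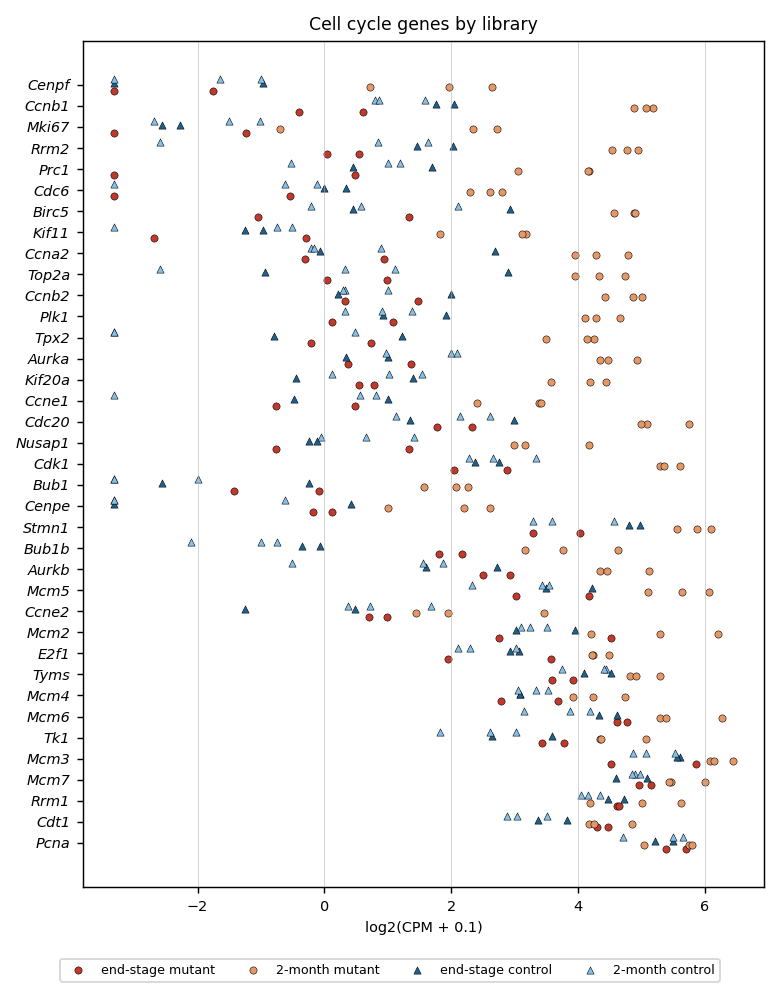
Level of the 37 cell cycle genes in each cortex-labelled library, as log2(CPM + 0.1), sorted by the fitted stage difference in mutants. The 3 two-month mutants sit to the right of every control for 34 genes, and the end-stage mutants lie among or below the controls for most.

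Disease-associated genes rose in part. Of 28 tested, 10 were higher and 0 lower, against 0.735% and 1.1% of all genes tested. The median was 1.09 against 0.29 in controls. The summed level was 139500 and 156700 CPM at end-stage and 46780, 35370 and 37660 CPM in M2617, M2621 and M2624, with most of the rise from Apoe. Lgals3, which encodes galectin-3, was at 144 and 113 CPM at end-stage, 12.5, 13.9 and 30.6 CPM at 2 months and 3.71 to 18.4 CPM in controls (log2 2.76, adjusted p = 0.0086). Lyz2, lysozyme, was at 2211 and 2501 CPM against 305 to 598 CPM at 2 months (log2 2.48, adjusted p = 0.0062). Igf1, a growth factor, was at 15.2 and 8.20 CPM against 0, 0.0513 and 0.515 CPM (adjusted p = 0.0078). Cd63, a tetraspanin of late endosomes, was at 1422 and 1372 CPM against 587 to 610 CPM, and Cst7, a cathepsin inhibitor, at 119 and 134 CPM against 43.3 to 52.5 CPM. Timp2, a metalloproteinase inhibitor, was at 1242 and 1265 CPM against 589, 594 and 537 CPM, but its controls, at 590 to 934 CPM, overlapped the 2-month mutants (2.19-fold, adjusted p = 0.00033).

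Several members were high in mutants at both stages and did not pass between them. Axl, a receptor for dying cells, was at 1084 and 2117 CPM at end-stage and 711 to 915 CPM at 2 months, with controls at 11.2 to 66.7 CPM (adjusted p = 0.62). Cybb, the phagocyte oxidase, was at 162 and 280 CPM and at 83.8 to 199 CPM, with controls at 3.50 to 12.9 CPM (adjusted p = 0.83). Spp1, osteopontin, was at 929 and 3870 CPM and at 340, 205 and 1218 CPM (adjusted p = 0.41), and the stages overlapped. Clec7a, the receptor dectin-1, did not overlap, at 359 and 412 CPM against 65.7 to 198 CPM, yet did not pass (adjusted p = 0.31). Trem2 and Tyrobp, the receptor and adaptor of this programme, overlapped between stages at 1744 to 2425 and 991 to 1464 CPM. Of the 28 members, 24 were above all controls at end-stage and 13 at 2 months, against 14.1% and 8.74% of all genes tested. The count of 10 was 8 by the sample record and 0 with undisputed mice alone. It was 5 without M1376 or M2621, and 3 against M2621 alone.

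Homeostatic genes were lower for 4 of 21, and none was higher, against 1.1% and 0.735% of all genes tested. The 4 were P2ry12, P2ry13, Selplg and Sparc, and the median was -0.40 against 0.00 in controls. Sparc, a matrix-binding glycoprotein, was at 2713 and 3201 CPM at end-stage, 5820, 6911 and 6869 CPM at 2 months and 5758 to 8218 CPM in controls (2.21-fold lower, adjusted p = 0.0021). Selplg, the ligand of P-selectin, was at 3810 and 5509 CPM against 8006 to 10320 CPM, with controls at 9906 to 10600 CPM. P2ry12, the ADP receptor that steers microglial processes, was at 1933 and 1046 CPM at end-stage, 2915, 2260 and 3491 CPM at 2 months and 3843 to 6508 CPM in controls (adjusted p = 0.04). P2ry13, a related receptor, was at 982 and 943 CPM against 1558 to 1601 CPM, and 2524 to 3409 CPM in controls. Both purinergic receptors were therefore below the controls at 2 months and lower again at end-stage. At 2 months 8 of 21 members were below all controls, and at end-stage 14 were, against 6.05% and 13.1% of all genes tested. Tmem119 (4153 and 7377 against 8722 to 10210 CPM) and Sall1 (227 and 227 against 224 to 299 CPM) did not pass. The count of 4 was 2 when M1376, M2617, M2621 or M2624 was left out, 2 with sex as a covariate, and 0 with undisputed mice alone. P2ry13 lost its call without any 1 mouse (adjusted p at most 0.17), and Selplg without M1376 or M2621 (at most 0.12).

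**Figure D4:**
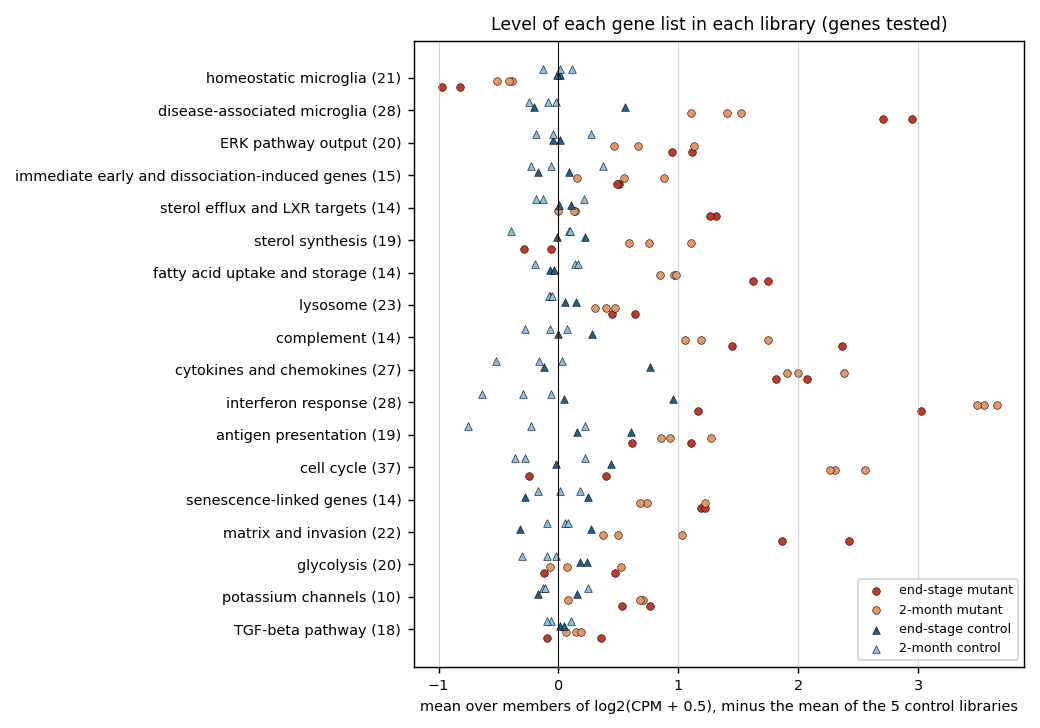
Mean level of the tested members of each gene list in each cortex-labelled library (x), on the log2(CPM + 0.5) scale and relative to the mean of the 5 controls, with the number of members in brackets. The interferon and cell cycle lists are highest in the 3 two-month mutants, and the disease-associated, sterol efflux and matrix lists in the 2 end-stage mutants.

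Of 14 efflux and liver X receptor target genes tested, 4 were higher and 0 lower: Abca1, Abcg1, Apoc1 and Apoc4, with a median of 0.46. Among all genes tested, 0.735% were higher and 1.1% lower. Abcg1, which passes cholesterol to high-density lipoprotein, was at 161 and 176 CPM at end-stage, 25.1, 15.7 and 18.99 CPM in M2617, M2621 and M2624 and 16.9 to 34.2 CPM in controls. Its 8.46-fold rise had the smallest p of all genes in the contrast (log2 3.08, SE 0.25, adjusted p = 1.1e-05) and its adjusted p in this contrast was at most 0.011 under every alternative tried. Abca1, its partner for lipid-poor apolipoproteins, was at 381 and 330 CPM against 101, 44.7 and 76.3 CPM, with controls at 34.8 to 80.2 CPM (4.81-fold, adjusted p = 0.0047). Apoc4, in the Apoe gene cluster, had 262 reads at end-stage and 2 at 2 months, a ratio of 215 (exact 95% interval 58.9 to 1783, counting error only). Mylip, which lowers the LDL receptor (137 and 142 against 94.3 to 126 CPM), and Npc2, a lysosomal sterol carrier (981 and 1081 against 912 to 1095 CPM), did not pass (adjusted p = 0.59 and 0.99). The 2 members named first, Abca1 and Abcg1, kept their call without each mouse. The count of 4 was 2 without M1376 or against M2621 alone, and 1 with undisputed mice alone.

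In sterol synthesis 18 of 19 tested genes were fitted below 0, with a median of -0.85 against 0.28 in controls. For 12 the end-stage mutants lay wholly below the 2-month mutants, where 15% of all genes tested did. The 3 that passed were Sqle, Fdft1 and Msmo1, where 1.1% of all genes tested were called lower. Sqle, the rate-limiting squalene epoxidase, was at 28.7, 51.5 and 44.6 CPM in M2617, M2621 and M2624, at 4.09 and 7.22 CPM at end-stage and at 5.95 to 12.4 CPM in controls (7.36-fold lower at end-stage, adjusted p = 0.0047). As for the cell cycle genes, the 2-month mutants were the group that stood apart for Sqle. Fdft1, squalene synthase, was at 29.3, 37.7 and 23.1 CPM against 9.70 and 14.6 CPM, and Msmo1 at 120, 151 and 113 CPM against 78.7 and 66.2 CPM. For both, the end-stage mutants lay below all 5 controls. By the sample record 0 of 19 passed (adjusted p = 0.31 for Sqle, 0.2 for Fdft1 and 0.18 for Msmo1), and 0 passed without M1376. The count was 1 without M1524, M2617 or M2621.

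Lipid uptake and storage genes were higher for 3 of 14, Fabp5, Lpl and Plin2, and lower for 0, against 0.735% and 1.1% of all genes tested. Fabp5, a fatty acid carrier, was at 34.4 and 27.5 CPM at end-stage, 3.54, 3.74 and 2.52 CPM at 2 months and 1.91 to 3.77 CPM in controls (9.47-fold, adjusted p = 0.0021). The 2-month mutants overlapped the controls. Lpl, lipoprotein lipase, was at 452 and 217 CPM against 47.0, 19.6 and 53.4 CPM, with controls at 9.71 to 31.8 CPM (8.36-fold, adjusted p = 0.033). Plin2, a lipid droplet coat protein, was at 67.6 and 117 CPM against 47.9 to 58.1 CPM (1.73-fold, adjusted p = 0.04). Fabp5 kept its call without each mouse. Lpl lost it without M1376, M2621 or M2624 (adjusted p at most 0.31), and Plin2 without every mouse but M1376 (at most 0.55) and by the sample record (0.069).

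Matrix genes were higher for 6 of 22 and lower for 2, against 0.735% and 1.1% of all genes tested. Their median was 1.39 against 0.00 in controls. Tgfbi, a matrix protein induced by TGF-beta, was at 244 and 297 CPM at end-stage, 67.5, 57.1 and 78.4 CPM at 2 months and 45.7 to 74.5 CPM in controls (log2 2.00, SE 0.23, adjusted p = 0.00021). Postn, periostin, was at 68.5 and 36.4 CPM against 3.36, 2.15 and 6.74 CPM (12.8-fold, adjusted p = 0.0012). In controls Postn was at 1.06 and 1.23 CPM at end-stage and 8.46 to 9.84 CPM at 2 months. Fn1, fibronectin, was at 111 CPM in M1376 and 863 CPM in M1524 against 16.01 to 23.0 CPM at 2 months and at most 1.45 CPM in controls. Fn1 lost its call without M1524 or M2621 (adjusted p at most 0.29) and by the sample record (0.057). Adam8, a metalloprotease, was at 52.7 and 148 CPM against 7.09 to 13.2 CPM. Mmp28 was at 0 CPM in both end-stage mutants and 1.83 to 2.92 CPM at 2 months, at least 28.0-fold lower at end-stage against a floor of 3 reads over the group. The higher count was 3 without M1524 or M2621, and 0 with undisputed mice alone.

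The ERK pathway list gave 1 member higher and 2 lower of 20, against 0.735% and 1.1% of all genes tested, with a median of 0.26. Egr2, a transcription factor induced by ERK, was at 73.1 and 51.8 CPM at end-stage, 5.68, 8.51 and 6.13 CPM at 2 months and 1.16 to 5.72 CPM in controls (9.23-fold, adjusted p = 0.015). Spry1, a feedback inhibitor of the pathway, was at 13.6 and 10.8 CPM against 60.3, 79.6 and 58.7 CPM, and controls had 20.2 to 61.7 CPM (5.42-fold lower, adjusted p = 0.0024). Ccnd1, cyclin D1, was at 24.7 and 48.3 CPM against 80.7, 142 and 108 CPM (adjusted p = 0.024). Other outputs did not pass between the stages. Etv4, a classical ERK target, was at 10.5 and 8.07 CPM against 5.93, 7.18 and 7.05 CPM, with controls at 0 to 2.51 CPM (adjusted p = 0.93). The feedback phosphatase gene Dusp6 overlapped between stages, at 712 to 1156 CPM over the 5 mutants (adjusted p = 0.59). Spry1 kept its call without each mouse and had an adjusted p of 0.054 by the sample record. Egr2 and Ccnd1 lost theirs without M1376, M2621 or M2624 (at most 0.13 and 0.35), and Ccnd1 had an adjusted p of 0.29 by the sample record.

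Among 15 immediate early genes, which cell dissociation also induces, Atf3 and Dusp1 rose and Klf2 fell. Of all genes tested, 0.735% were called higher and 1.1% lower. Atf3, a stress-response factor, was at 123 and 78.3 CPM at end-stage against 20.8, 23.6 and 21.9 CPM and 17.6 to 36.6 CPM in controls (4.55-fold, adjusted p = 0.0011). Dusp1, a phosphatase of stress kinases, was at 65.9 and 52.04 CPM against 15.7 to 17.5 CPM (3.53-fold, adjusted p = 0.0016). Both kept their call without each mouse, and by the sample record Atf3 had an adjusted p of 0.063. Klf2, a transcription factor of quiescence, was at 10.9 and 14.8 CPM against 31.5, 47.7 and 64.0 CPM, and its call (adjusted p = 0.0499) was lost without any 1 mouse (at most 0.37). The mean level of the 15 genes overlapped between the stages.

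Interferon response genes were high in mutants at 2 months and uneven at end-stage. All 28 tested members had a fitted difference below 0, with a median of -1.20. For 20 the end-stage mutants lay wholly below the 2-month mutants, where 15% of all genes tested did. The fitted median in controls was 1.10. In the 2-month mutants 28 of 28 were above every control, where 8.74% of all genes tested were. In the undisputed M2624 all 28 were above the undisputed controls, where 29.5% of all genes tested were. At end-stage 15 were above every control, where 14.1% of all genes tested were. Only Bst2, tetherin, passed between the stages, at 137 and 251 CPM against 389, 603 and 372 CPM, with controls at 63.0 to 128 CPM (log2 -1.23, adjusted p = 0.046). The 2 end-stage mutants differed: the mean level of the list over controls was 1.17 in M1376 and 3.03 in M1524, against 3.49 to 3.66 at 2 months. Irf7, the factor that amplifies the response, was at 54.6 CPM in M1376, 415 CPM in M1524 and 434 to 510 CPM at 2 months (adjusted p = 0.65). Without M1524, 4 members passed. Bst2 lost its call without M1376, M2617, M2621 or M2624 (adjusted p at most 0.37), and by the sample record its difference turned to 0.20 (adjusted p = 0.93).

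Immune mediators gave few calls, where 0.735% of all genes tested were called higher and 1.1% lower. For 11 of 27 cytokines and chemokines the end-stage mutants still lay wholly above the 2-month mutants. For another 11 they lay wholly below, where 14.8% and 15% of all genes tested did. Of the 27, 15 were above all controls at end-stage and 16 at 2 months, against 14.1% and 8.74% of all genes tested. Among 27 cytokines and chemokines, Cxcl14 rose, at 88.7 and 109 CPM against 6.84, 9.58 and 8.39 CPM and 0.132 to 2.81 CPM in controls (adjusted p = 0.0069). Il6, interleukin 6, fell, at 4.69 and 1.69 CPM against 19.9, 36.2 and 17.97 CPM and 19.4 to 34.6 CPM in controls (7.75-fold lower, adjusted p = 0.0025). The 2-month mutants overlapped the controls for Il6. Of 14 complement genes, C3 rose from 6.33 to 14.4 CPM over the 2-month mutants to 72 and 226 CPM, with controls at 0 to 2.60 CPM (adjusted p = 0.038). None of 19 antigen presentation genes, 23 lysosome genes or 20 glycolysis genes passed in either direction. The lysosome median was 0.04, and 14 of its 23 members were above all controls at end-stage and 11 at 2 months. The shares over all genes tested were 14.1% and 8.74%. Cxcl14 lost its call without M1376 or M1524 (adjusted p at most 0.065), and C3 without every mouse but M1376 (at most 0.30) and by the sample record (0.069).

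Of 14 senescence-linked genes 2 were lower, Cdkn2c (7.74 and 7.09 CPM against 20.8 to 30.0 CPM), an inhibitor of cyclin D kinases, and Igfbp4 (58.5 and 66.3 CPM against 118 to 217 CPM), a binding protein of insulin-like growth factors. Cdkn2c lost its call without M1376 or M1524 (adjusted p at most 0.063) and Igfbp4 without every mouse but M2624 (at most 0.35). Under the sample record the adjusted p was 0.47 for Cdkn2c and 0.26 for Igfbp4. Over all genes tested 1.1% were called lower and 0.735% higher, the background for this list and those that follow. Kcnk12 was the 1 potassium channel gene of 10 that passed, at 18.2 and 20.3 CPM against 62.5, 40.3 and 63.8 CPM and 55.7 to 84.5 CPM in controls (adjusted p = 0.0069, lost without M1376 or M1524 at most 0.13). In the TGF-beta pathway, which maintains the homeostatic state, 1 of 18 rose and 1 fell. Eng, a co-receptor, was at 51.99 and 104 CPM against 178 to 244 CPM and 141 to 194 CPM in controls (adjusted p = 0.0069, 0.071 without M1376 and 0.16 by the sample record). Tgfb2, a ligand, was at 4.09 and 0.911 CPM and at 0 in all 3 two-month mutants, at least 46.1-fold higher, and lost its call without any 1 mouse (at most 0.32) and by the sample record (0.125).

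Markers of other cells moved with some of these results. In bulk libraries more cells of a type and more RNA per cell cannot be told apart. The 13 monocyte markers summed to 256 and 1130 CPM at end-stage, 256 to 303 CPM in the 2-month mutants and 25.4 to 49.3 CPM in cortex-labelled controls, with 7 to 9 of 13 detected in the mutants. Fn1 gave 863 CPM of the sum in M1524 and Plac8 57.5 to 97.9 CPM of it at 2 months. Ly6c2 was at 0 in both end-stage mutants and at most 1.13 CPM at 2 months, and Chil3 at most 0.618 CPM. Ccr2, the defining receptor, was at 2.02 and 2.02 against 1.24 to 1.49 CPM. Of 12 border-associated macrophage markers 11 were tested and 0 passed. In 8 of the 11 the end-stage mutants lay wholly above the 2-month mutants, where 14.8% of all genes did, 10 were fitted above 0, and the median was 2.00 against 0.30 in controls. Their sums were 198 and 423 against 171 to 198 CPM, and 140 to 263 CPM in controls. Ms4a7 was at 17.7 and 45.9 against 0.615 to 3.24 CPM (adjusted p = 0.17), the defining Mrc1 at 2.40 and 3.64 against 0.122 to 1.96 CPM, and Lyve1 at 2.67 and 0.455 against 0 CPM. The oligodendrocyte precursor sum (37.3 and 88.5 against 1.04 to 5.33 CPM) followed Cspg4, and Pecam1, an endothelial gene also made by myeloid cells, fell from 34.1 to 54.5 CPM to 9.76 and 6.05 CPM (adjusted p = 0.0017). Klrd1, a natural killer cell receptor, fell from 1.89, 10.0 and 16.8 CPM to 0.327 and 0 CPM (adjusted p = 0.01, lost without M1376 or M1524 at most 0.11). The 13 T and NK cell markers summed to 0.491 and 0.260 CPM at end-stage against 2.87, 12.5 and 17.1 CPM at 2 months, mostly from Klrd1. Cd3e, a defining gene of T cells, was at 0 in all 5 libraries. Trac, a T cell receptor gene, was at 0 at end-stage and 0.256 to 0.489 CPM at 2 months. Gzmb was at 1.54 CPM in M2621 alone, while Cd8a was at 0.164 and 0.065 CPM at end-stage and at most 0.0515 CPM at 2 months. The sums overlapped between stages for neutrophil, astrocyte, oligodendrocyte and endothelial markers and were lower at end-stage for B cell (280 and 284 against 429 to 649 CPM) and neuron markers (5.78 and 4.29 against 7.41 to 15.8 CPM). Their part in the gene results was not tested.

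The stage difference was then compared between mutants and controls. By sex-linked genes, control M2618 was male and M1375, M1521, M2629 and M2633 were female, so sex was not balanced here either. The end-stage controls differed in genotype, M1375 as Braf VE with CX3 WT and M1521 as Braf WT with CX3 HET. The genotype-by-stage test called 44 genes (0.265%), with 16 more positive and 28 more negative in mutants. Of the 44, 42 were also called in mutants, 95.5% of the 44 and 13.8% of the 305. Both tests contain the same mutant stage difference, so this overlap is partly built in. Among called genes with a mean of at least 1 on the log2 CPM scale, Postn had the largest positive value, 6.69 (SE 0.82, adjusted p = 0.0019), as it was higher at end-stage in mutants (3.68) and lower in controls (-3.01, adjusted p = 0.26). Apoe followed at 5.35 (SE 0.88, adjusted p = 0.014), then Bambi at 3.76 (adjusted p = 0.007), Fabp5 at 3.57 (0.041) and Abcg1 at 3.14 (0.0018). Bambi, a decoy receptor for TGF-beta family ligands, was at 61.3 and 43.1 CPM at end-stage and 7.93 to 10.4 CPM at 2 months in mutants, and 2.65 to 11.7 CPM in controls. Among the same called genes Prkcq had the largest negative value, -6.37 (SE 1.09, adjusted p = 0.017), followed by Ccnb1 at -5.80 (0.041), Ccna2 at -5.75 (0.03), Upk1b at -4.80 (0.025) and Mmp11 at -4.59 (0.041). Mmp11, a matrix metalloproteinase, was at 0.109 and 0.716 CPM against 4.09, 11.8 and 4.17 CPM in mutants and 5.61 to 16.6 CPM in controls. The count of 44 ranged from 10 (without control M1375) to 108 (without M1524), and was 75 by the sample record. Without M2621 it was 19, without M1376 23, without control M1521 or M2633 25, without M2624 26 and without M2617 or control M2618 28.

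**Figure D5:**
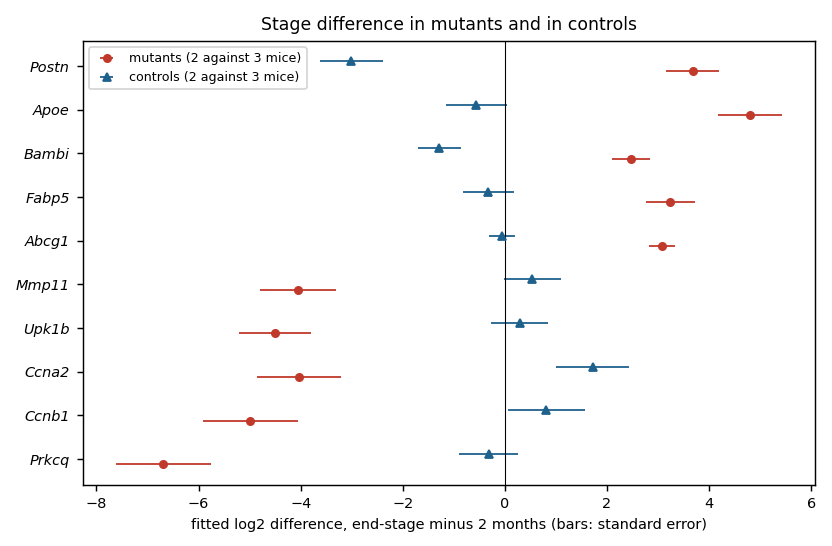
Fitted log2 difference between end-stage and 2 months for the 10 genes named for genotype by stage, in mutants (red circles) and controls (blue triangles), with SE bars, 2 against 3 mice each. Postn lies at 3.68 in mutants and -3.01 in controls, and Prkcq at -6.69 and -0.32.

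The brainstem-labelled libraries of the same 5 mutants gave the comparison between regions. The test of stage by region called 3 genes (0.0181%): Abcg1 at 2.81 (SE 0.36, adjusted p = 0.0068), Nid2 at -4.18 (SE 0.61, adjusted p = 0.022) and Tgfbi at 2.08 (SE 0.33, adjusted p = 0.036). In brainstem-labelled libraries Abcg1 was at 163 and 103 CPM at end-stage and 97.9 to 122 CPM at 2 months. Their 2-month levels lay wholly above those of the cortex-labelled libraries. Tgfbi was at 52.1 and 77.8 CPM there at end-stage and 59.6 to 83.4 CPM at 2 months. Apoe was at 2936 and 6096 CPM there at end-stage and at 698 to 1785 CPM at 2 months. With each mouse as a fixed replicate block, since both regions came from the same animals, 61 genes passed, 19 more positive and 42 more negative in cortex-labelled libraries, and 35 of them had passed the stage test. These included Apoe (3.20, adjusted p = 0.0051), Upk1b (-3.05, 0.00045), Sqle (-2.88, 0.017), Postn (4.02, 0.029), Plac8 (-6.40, 0.019) and Aurka (-3.02, 0.049). The unblocked count was 1 without M1376, M2617 or M2621 and 0 without M1524 or M2624.

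Of the 58 named genes that passed between the stages, 20 kept their call without each of the 5 mutants in turn, and 15 of those also by the sample record. In all, 31 of the 58 passed under that record, and with undisputed mice alone 8 did. Abcg1, Rxrg, Nid2 and Prkcq kept it under every alternative tried, including that with the 3 undisputed mutants (adjusted p = 0.011, 0.038, 0.00057 and 0.019). Aurka, Cdk1, Pecam1, Spry1 and Atf3 kept it without each mouse and lost it by the sample record (adjusted p = 0.19, 0.32, 0.08, 0.054 and 0.063).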

How the data were processed

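Microglial RNA of 10 mice was sequenced in 20 libraries. The authors deposited 1 table of raw gene counts; FastQC, Subread, edgeR and mm10 are named in the submitters' processing notes, and how each was applied is not given in the sources used here. Of 55487 gene identifiers, 55394 had a symbol, and the rest held 0.0012% of counts. Nothing in the labels says how many mice were pooled or litters shared, so p-values measure the spread between these libraries.

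The counts were fitted with edgeR 4.0.16 in R 4.3.3 (TMM scaling, filterByExpr, quasi-likelihood test, Benjamini-Hochberg adjustment) over 8 groups of genotype, stage and region, which share 1 estimate of spread. The 4 contrasts were stage in mutants, stage in controls, genotype by stage and stage by region. DESeq2 1.42.0 and limma 3.58.1 were alternatives. The fit was also run on simulated data, with an outcome that is not given here. Both regions came from the same mouse, and deviations of same-mouse libraries correlated at 0.1009 to 0.2646 over 10 mice, so mouse was tried as a replicate block. Replicates differed by more than sampling noise (lowest chi-square per degree of freedom 18.55). A count of 0 allows up to 3 reads, and such bounds cover counting error only.

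Named genes were the 10 largest rises and 10 largest falls among called genes whose stages did not overlap and whose mean log2 CPM reached 1, up to 3 members per list by p (1 for markers of other cells), 5 per direction for each interaction, and Braf and Cx3cr1. Predicted genes, clones and pseudogenes were left out. Other list members given as examples were chosen after their values were seen. The members and lists were chosen with earlier results of these data known.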

Additional observations from a re-analysis of the deposited data

Results flagged for a closer look

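The stage difference differed between mutants and controls, by the genotype-by-stage test in edgeR, for the 10 genes named. The mutant difference exceeded that in controls by 6.69 for Postn, 5.35 for Apoe, 3.76 for Bambi, 3.57 for Fabp5 and 3.14 for Abcg1 on the log2 scale. It lay below that in controls with values of -6.37 for Prkcq, -5.80 for Ccnb1, -5.75 for Ccna2, -4.80 for Upk1b and -4.59 for Mmp11.

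The stage difference also differed between the regions of the mutants. The cortex-labelled value less the brainstem-labelled value was 2.81 for Abcg1, 2.08 for Tgfbi and -4.18 for Nid2. With 2 to 3 libraries in each group, single libraries could not be examined for distance from their group.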

How the results depend on the processing

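The number of mice limits these counts: 2 end-stage mutants were compared with 3 mutants at 2 months, of which 1 has an undisputed label. For genes higher at end-stage (122), the count was 6 with undisputed mice, 310 with DESeq2, 424 with no low-count filter, 347 with limma-voom and mouse as a replicate block, 37 with the female 2-month mutant alone and 43 to 98 when each mouse was left out. For genes lower (183), the counts were 18, 466, 539, 283, 87 and 53 to 146 under the same settings, and 84 when only the 5 libraries were fitted. For stage in controls (0), they were 3 by the sample record, 4 with undisputed mice, 35 with DESeq2, 282 with no filter and 0 to 2 when a mouse was left out. For genotype by stage (44), they were 75 by the sample record, 2 with undisputed mice, 242 with DESeq2, 565 with no filter, 65 with sex as a covariate and 10 to 108 when a mouse was left out. For stage by region (3), they were 1, 0, 63, 284, 7 with the sex covariate and 0 to 1, and 61 with mouse as a fixed replicate block. The sex covariate and the fit with the female mutant alone were chosen after seeing the data. With limma-voom and the replicate block, 55 of the 58 named genes that passed between stages still did. Bst2 turned from -1.23 to 0.20 by the sample record. Over 1399 values of 88 named genes under alternatives, 1085 kept their side of the threshold, 273 lost the call, 40 gained one and 1 reversed. A change of direction was counted among the 1085 where neither value passed. The cause of these changes was not tested.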
